A study of Mus musculus with 8 samples.

Results

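The genes described here encode subunits and assembly factors of the mitochondrial respiratory chain, complexes I to IV. A gene was included if its symbol begins with Nduf or Uqcr, is one of Sdha to Sdhd, or begins with Cox4 to Cox8, the nuclear-encoded subunits of cytochrome c oxidase. On these arrays 71 of the 16645 named genes met the rule, 42 for complex I, 4 for complex II, 8 for complex III and 17 for complex IV. They were measured by 83 of the 18154 probe sets that carry a single gene symbol, and where a gene had several, the one with the highest mean over the 8 arrays stands for it. The rule uses names alone, but the members were chosen with earlier results of these data known.

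The respiratory chain of the inner mitochondrial membrane passes electrons from NADH (complex I) and succinate (complex II) through ubiquinone, complex III and cytochrome c to oxygen (complex IV). Complexes I, III and IV pump protons, and ATP synthase uses the resulting gradient. The surface epithelium of the colon depends on this route, because its main fuel is butyrate made by bacteria, which it burns by beta-oxidation in mitochondria.

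RNA came from the distal end of the colon of 5-week-old male mice of the inbred BALB/c strain. In the AA group appendicitis was induced in the lymphoid tissue of the caecum and the appendix was removed 1 week later. The SS mice had 2 sham operations 1 week apart, so both groups had been through repeated abdominal surgery, and no other agent or allele is given in the labels. Each group had 4 Affymetrix mouse whole-transcript arrays, 1 colon sample to an array with 100 ng of RNA, and the labels place 2 arrays of each group in each of 2 batches. The labels name no animals, so the p-values describe the spread between these samples.

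Levels are deposited log2 values, which ran from 2.85 to 14.264 over the tested probe sets with array medians from 7.085 to 7.164, and the correlation between a pair of arrays was 0.974 to 0.995. The batch means of each tested probe set were equal to within 6e-05, so the batches had been centred, and an array that is low for a gene makes the others of its batch look higher. Of the colonocyte markers listed, 14 of 15 were measured, and all 14 lay at or above 7.13, the median level over all tested probe sets. In a piece of whole colon wall, fewer cells of a type and less RNA per cell cannot be told apart. Differences are given as AA minus SS in log2 units. They and their standard errors (SE) come from limma, a linear model with a batch term fitted to all probe sets at once. P-values were adjusted over all of them by Benjamini-Hochberg, with 0.05 as the threshold.

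Respiratory chain genes stood at nearly equal levels in AA and SS colon. No member passed the threshold: 0 of 71 had a limma adjusted p under 0.05, the smallest was 0.505, and 0.0% of all genes passed either. At an unadjusted p under 0.05 in limma, 0 members were higher in AA, where 5.67% of all genes were, and 1 was lower, where 2.29% were, which makes 1 of 71 in either direction against 7.97%. Differences were above 0 for 36 members and below 0 for 35, with a median of 0.00072 against 0.0066 over all genes. They ran from -0.25 to 0.24, so 0 of 71 members differed by more than 0.25 in either direction, against 12.4% of all genes. With quantile normalization, or with every array centred on its median, 25 members lay above 0 and 46 below. These settings moved the median of all genes from 0.0066 to -0.0047 and -0.029, and that of the members from 0.00072 to -0.025 and -0.035. The part of the general shift in these changes of sign was not tested.

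The arrays were as precise for these genes as for others. The standard error of a member's difference had a median of 0.11, and so did that of all genes. The 95% interval lay within 0.5 of 0 in either direction for 68 of 71 members (95.8%), against 81.3% of all genes. The exceptions were Cox7a1 (-0.31 to 0.67), Cox8b (-0.62 to 0.32) and Ndufa1 (-0.037 to 0.52). Of the 71 members, 63 lay at or above the median level. The plot of differences by gene shows all 71 with their intervals.

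**Figure D1:**
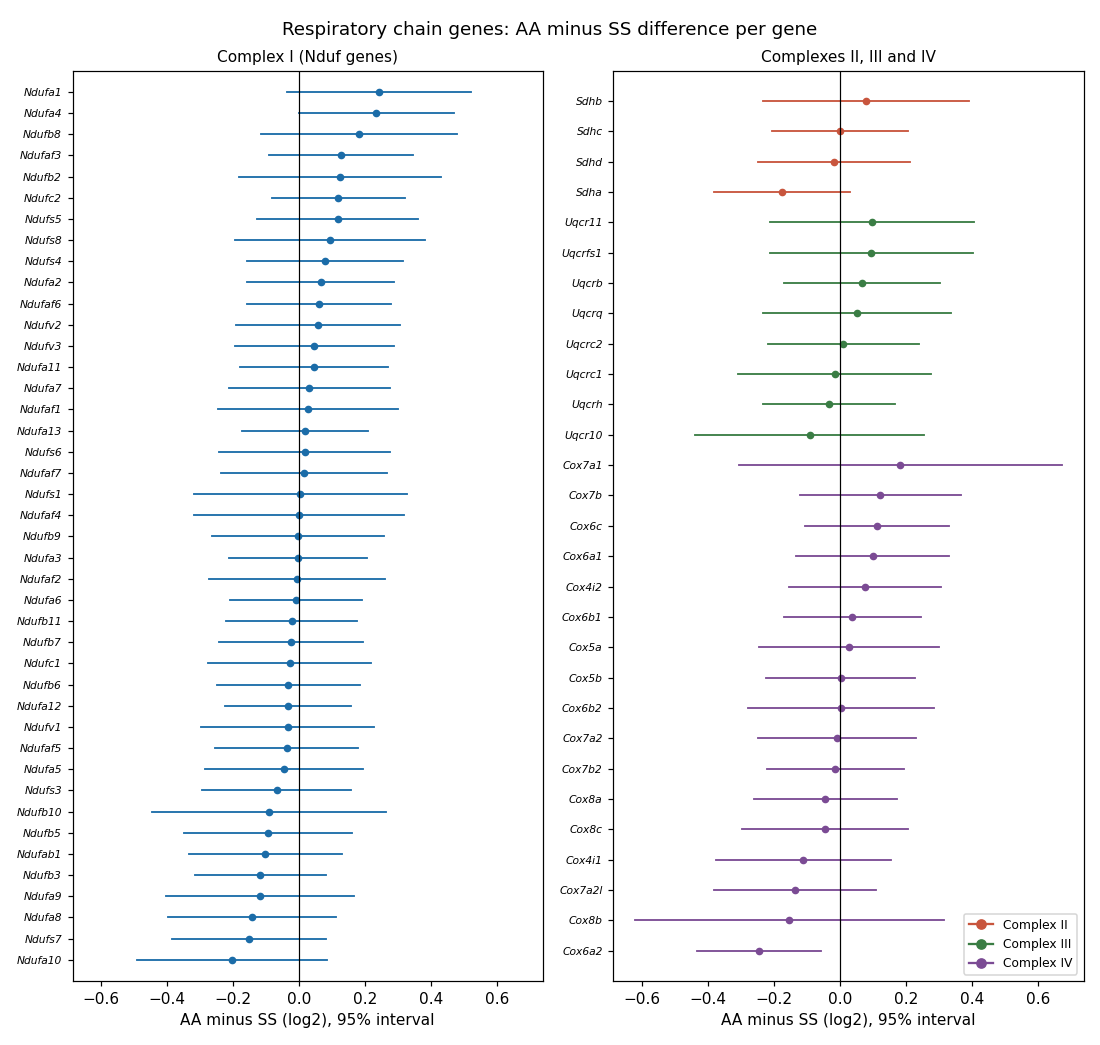
AA minus SS difference of each respiratory chain gene on the log2 scale (horizontal axis) with its 95% interval from limma, for complex I in one panel and complexes II to IV in the other. All 71 differences lie between -0.25 and 0.24, and the interval of Cox6a2 alone stays clear of 0.

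Complex I, the proton-pumping NADH dehydrogenase, had 42 measured genes, of which 21 were above 0 and 21 below, with a median difference of -0.0016. Its 6 core subunits, the class that includes the carriers of the flavin and iron-sulphur clusters, had a median of -0.016. The median was -0.0068 for its 28 accessory subunits and 0.014 for its 7 assembly factors. The remaining gene, Ndufa4, is described with complex IV. None of the 42 had an unadjusted p under 0.05 in limma. The genes named in each class are those with its smallest p.

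Among the core subunits, Ndufs7 holds an iron-sulphur cluster next to the ubiquinone site. It read 9.66, 9.63, 9.45 and 9.65 in AA replicates 1 to 4 and 9.54, 9.87, 9.83 and 9.77 in SS replicates 1 to 4. Its SS arrays lay above all AA arrays except for SS replicate 1. The difference was -0.15 ± 0.10 (SE), with a limma adjusted p of 0.759. Ndufs8, another iron-sulphur subunit, read 9.56, 9.48, 9.15 and 9.48 in AA and 9.05, 9.40, 9.46 and 9.39 in SS. Its groups overlapped, with the low values in AA replicate 3 and SS replicate 1, and its difference was 0.094 ± 0.13 (SE).

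The accessory subunit with the smallest p was Ndufa1, a small membrane protein encoded on the X chromosome that the assembly of complex I requires. It read 10.67, 10.64, 10.45 and 10.99 in AA and 10.37, 10.59, 10.46 and 10.37 in SS. Only AA replicate 3 fell inside the SS range, and the difference was 0.24 ± 0.12 (SE) with a limma adjusted p of 0.673. Ndufa10, which resembles nucleoside kinases, went the other way. It read 10.19, 10.39, 9.98 and 10.22 in AA and 10.11, 10.51, 10.49 and 10.497 in SS, a difference of -0.20 ± 0.13 (SE). SS replicate 1 was its 1 SS array within the AA range, and without that array Ndufa10 had an unadjusted p under 0.05 in limma. Ndufb8 and Ndufb3, both in the membrane arm, differed by 0.18 ± 0.13 (SE) and -0.12 ± 0.088 (SE), with limma adjusted p-values of 0.780 and 0.787. Among the assembly factors Ndufaf3 differed by 0.13 ± 0.097 (SE) and Ndufaf6 by 0.059, with limma adjusted p-values of 0.797 and 0.917.

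Complex II, succinate dehydrogenase, belongs both to the chain and to the citric acid cycle. Sdha, its flavoprotein, read 11.15, 11.24, 11.24 and 11.03 in AA and 11.21, 11.40, 11.40 and 11.34 in SS. SS replicate 1 fell among the AA arrays and the other SS arrays lay above all of them. The difference was -0.18 ± 0.092 (SE), which is -0.11 in batch 1 and -0.24 in batch 2, with a limma adjusted p of 0.679. Sdhb, the iron-sulphur subunit, differed by 0.079 ± 0.14 (SE). The membrane anchors Sdhc and Sdhd differed by -0.00088 ± 0.091 (SE) and -0.018 ± 0.10 (SE). The groups overlapped in all 4 genes, and the adjusted p-values in limma reached 0.999.

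Complex III, the cytochrome bc1 complex, had 5 of 8 genes above 0 and a median of 0.031. Uqcrfs1, the Rieske iron-sulphur protein, read 9.79, 10.18, 9.75 and 10.02 in AA and 9.63, 9.95, 10.06 and 9.72 in SS. These groups overlapped, and the difference was 0.094 ± 0.14 (SE) with a limma adjusted p of 0.903. The small subunits Uqcr11 and Uqcrb differed by 0.096 ± 0.14 (SE) and 0.067 ± 0.11 (SE).

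Complex IV, cytochrome c oxidase, reduces oxygen, and several of its subunits exist as a general form and a tissue-restricted form. Its 17 genes had a median difference of 0.0027, with 9 above 0 and 8 below. The 9 general subunits had a median of 0.027. Cox7b, Cox6c and Cox6a1, the general forms with the smallest p, differed by 0.12 ± 0.11 (SE), 0.11 ± 0.096 (SE) and 0.099 ± 0.10 (SE), with limma adjusted p-values of 0.820, 0.814 and 0.846. Cox7a2l, classed as a factor for supercomplexes of complexes III and IV, differed by -0.14 ± 0.11 (SE), with a limma adjusted p of 0.799. Its activity in these mice was not measured.

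Ndufa4 was first purified with complex I and is now counted as a subunit of complex IV. It read 11.27, 11.62, 11.38 and 11.496 in AA and 11.25, 11.16, 11.33 and 11.09 in SS. AA replicate 1 lay under SS replicate 3, and the other AA arrays lay above all SS arrays. The difference was 0.23 ± 0.10 (SE), 0.24 in batch 1 and 0.23 in batch 2, with an unadjusted p of 0.052 and an adjusted p of 0.626 in limma.

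Cox6a2, the heart and skeletal muscle form of subunit VIa, was the member with the smallest p. It read 6.695, 6.67, 6.75 and 6.81 in AA and 7.08, 6.97, 6.90 and 6.95 in SS. Every AA value was under every SS value, as for 1.84% of all genes. It was the 1 member of 71 whose groups did not overlap in either direction, against 6.18% of all genes. The means were 6.73 ± 0.06 (SD, n = 4) and 6.98 ± 0.08 (SD, n = 4), both below the median level. The difference was -0.25 ± 0.084 (SE), -0.34 in batch 1 and -0.15 in batch 2, with an unadjusted p of 0.016 and an adjusted p of 0.505 in limma. The unadjusted p was not under 0.05 in 6 settings: without AA replicate 2 (0.052), without both AA replicate 3 and SS replicate 1 (0.067), in batch 2 alone (0.224), and with the adipocyte, colonocyte or smooth muscle marker mean as a covariate.

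The other muscle forms gave no common direction. Cox7a1, the muscle and brown fat form of subunit VIIa, read 10.32, 9.95, 9.68 and 10.01 in AA and 9.17, 10.15, 9.89 and 10.01 in SS. SS replicate 1 stood lowest by a wide margin and the groups otherwise overlapped, giving 0.18 ± 0.22 (SE), 0.47 in batch 1 and -0.11 in batch 2. Without SS replicate 1 the difference was -0.070. Cox8b, the muscle and brown fat form of subunit VIII, read 5.77, 6.17, 6.31 and 6.33 in AA and 6.89, 6.06, 6.01 and 6.23 in SS. Here SS replicate 1 stood highest, and the difference was -0.15 ± 0.21 (SE), -0.51 in batch 1 and 0.20 in batch 2. Without SS replicate 1 it was 0.082.

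The mean of adipocyte markers stood apart in the same array. With 13 of 15 markers measured and centred per gene, it ran from -0.53 to 0.23 in AA and from -0.15 to 1.12 in SS. The value of 1.12 was that of SS replicate 1. The AA minus SS difference was below 0 for all 13 markers. Adipoq, the adipocyte hormone adiponectin, read 10.04 there and 5.51 to 8.34 in the other arrays. Ucp1, the uncoupling protein of brown fat, read 5.28 there and 4.60 to 4.89 elsewhere, all below the median level. Not every marker stood apart in that array. Pck1 read 9.70 there and 9.23 to 10.58 elsewhere, and Pparg 9.49 there and 9.13 to 10.09 elsewhere. Skeletal and cardiac muscle markers (9 of 14 measured) ran from -0.22 to 0.25 in AA and from -0.13 to 0.098 in SS. With the adipocyte mean as a covariate Cox7a1 differed by -0.22, Cox8b by 0.16 and Cox6a2 by -0.19, and in limma none of these had an unadjusted p under 0.05.

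Cox4i2, a form of subunit IV linked to oxygen sensing in lung and pericytes, differed by 0.076, with overlapping groups. Cox6b2, Cox7b2 and Cox8c, the testis forms, differed by 0.0027, -0.014 and -0.046. Of these 4 genes every mean lay below the median level, and the limma adjusted p-values were 0.890 to 0.998. The plot of levels in every array sets selected genes side by side.

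**Figure D2:**
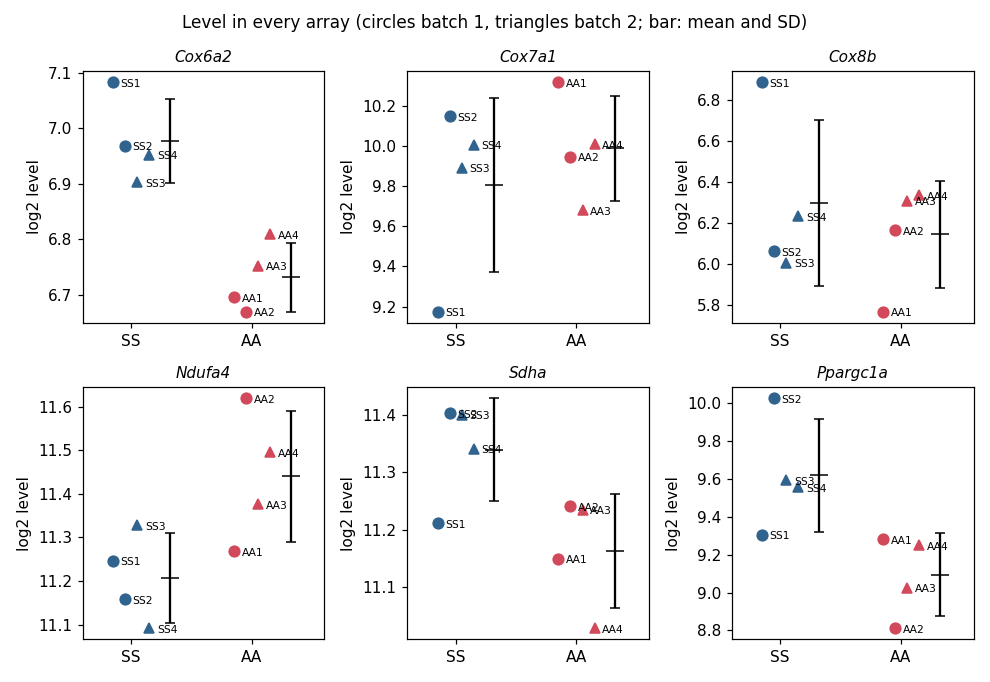
Log2 level (vertical axis) of 5 members and of Ppargc1a in each of the 4 SS and 4 AA arrays, circles for batch 1, triangles for batch 2, bars for mean and SD. All AA points lie below all SS points for Cox6a2 and Ppargc1a, as for 1.84% of all genes. SS replicate 1 stands apart at 9.17 for Cox7a1 and 6.89 for Cox8b.

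The complexes were also compared within each batch. In batch 1, 54 of 71 members were higher in AA and their median difference was 0.089. In batch 2, 20 were higher and 51 lower, with a median of -0.066. Over all genes the batch 1 and batch 2 medians were 0.028 and 0.0045, with 9192 and 8498 of 16645 higher in AA. Over genes at or above the median level they were 0.11 and -0.058, with 6038 and 3158 of 8215 higher. The sign differed between batches for 46 members (64.8%), against 54.6% of all genes and 52.3% of genes at or above the median level. Higher in AA in batch 1 and lower in batch 2 were 40 members (56.3%), against 29.4% of all genes and 43.7% of genes at or above the median level. By complex, the batch 1 and batch 2 medians were 0.090 and -0.10 for complex I, 0.046 and -0.074 for complex II, 0.17 and -0.062 for complex III, and -0.014 and -0.0056 for complex IV.

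The difference between batches was tested directly as a group-by-batch interaction in limma, a test added after the data were seen. It gave an unadjusted p under 0.05 for 1 of 71 members, against 9.14% of all genes, and an adjusted p under 0.05 for 0. That member was Ndufs1, the largest core subunit of complex I, chosen here after its values were seen, whose AA minus SS difference was lower by 0.58 in batch 2 (batch 2 minus batch 1, -0.58, unadjusted p 0.030, limma adjusted p 0.524). In batch 1 it read 10.39 and 10.67 in AA and 10.06 and 10.42 in SS. The batch 2 values were 10.27 and 10.21 in AA and 10.55 and 10.502 in SS. In batch 2 both AA arrays lay below both SS arrays.

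**Figure D3:**
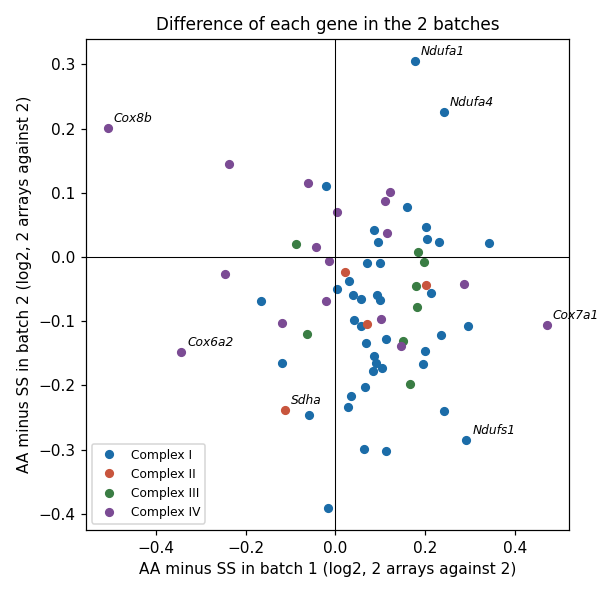
Difference of each gene in batch 1 (horizontal axis) and batch 2 (vertical axis), both AA minus SS on the log2 scale from 2 arrays against 2. The members crowd the lower right of the plot, where 40 of 71 (56.3%) lie, against 43.7% of genes at or above the median level.

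These opposite differences went with single arrays. SS replicate 1 held the lowest value of the 4 batch 1 arrays for 55 of 71 members (77.5%), against 39.2% of all genes and 60.9% of genes at or above the median level. AA replicate 3 held the lowest value of batch 2 for 46 members (64.8%), against 29.5% and 35.9%. For complex I the counts were 37 and 27 of 42 genes, and for complex IV 9 and 11 of 17. Complex I means, centred per gene, were 0.043, 0.063, -0.12 and 0.033 in AA replicates 1 to 4 and -0.17, 0.065, 0.10 and -0.0093 in SS replicates 1 to 4. SS replicate 1 was lowest and AA replicate 3 next, so the groups overlapped. The same arrays were the lowest pair for complex II (-0.17 and -0.099) and complex III (-0.23 and -0.17), whereas for complex IV AA replicate 3 stood at -0.11 and SS replicate 1 at -0.034.

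SS replicate 1 also had the narrowest spread of values, with an interquartile range of 2.186 against 2.362 to 2.582 in the other arrays. The part of this spread in the member values was not tested. After quantile normalization, which gives all arrays 1 distribution, SS replicate 1 was lowest of its batch for 25 of 71 members (35.2%), near the 29.7% of genes at or above the median level. AA replicate 1 was then lowest of batch 1 for 33 members (46.5%), against 22.3% of genes at or above the median level and up from 8 members (11.3%) before, so the array most often lowest in batch 1 was an AA and not an SS array. AA replicate 3 was lowest of batch 2 for 44 members (62.0%), against 32.8%.

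**Figure D4:**
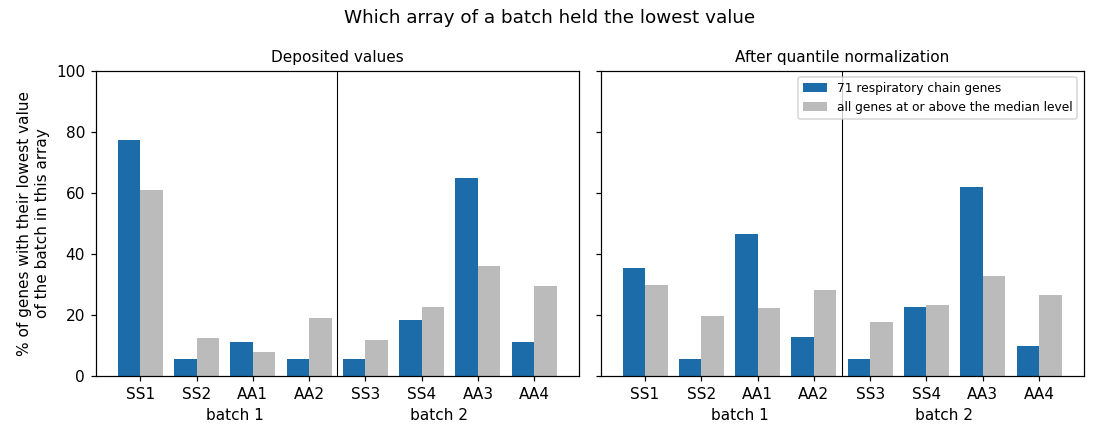
Percentage of genes whose lowest value within a batch was in each array, for the deposited values and after quantile normalization. Among the members SS replicate 1 goes from 77.5% to 35.2%, AA replicate 1 from 11.3% to 46.5% and AA replicate 3 from 64.8% to 62.0%.

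**Figure D5:**
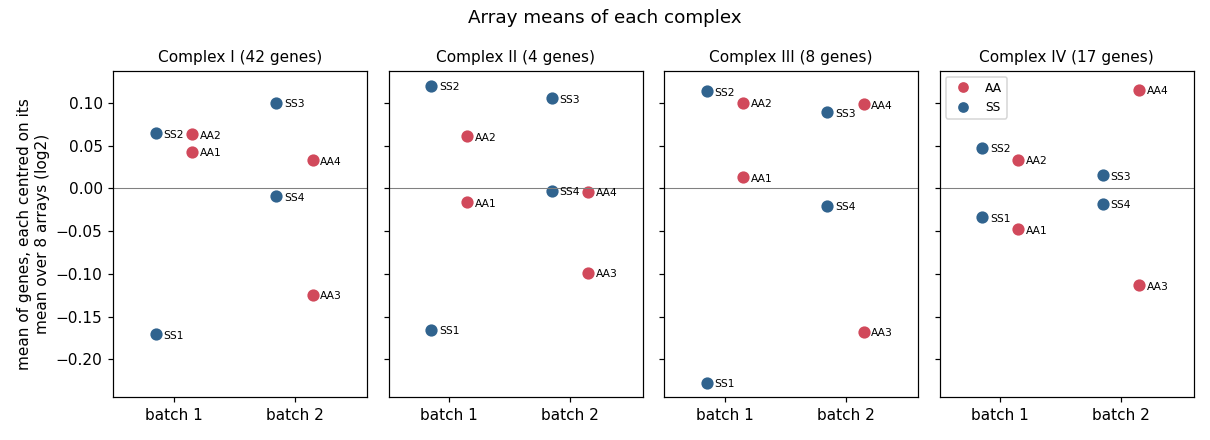
Mean level per array over the genes of each complex, centred per gene on the 8 arrays (log2), by batch and group. For complex I, SS replicate 1 stands at -0.17 and AA replicate 3 at -0.12, and the other 6 arrays lie between -0.0093 and 0.10.

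Cell type markers differed between these arrays and between the groups. In AA replicate 3 the mean of mesothelial markers (7 genes) was 1.16, in a range of -0.082 to 1.16 in AA and -0.98 to 0.23 in SS. The mean of macrophage markers (8 genes) was 0.98 there, in a range of -0.21 to 0.98 in AA and -0.61 to 0.28 in SS. Colonocyte markers ran from -0.056 to 0.16 in AA and from -0.18 to 0.020 in SS, with SS replicate 1 lowest. Smooth muscle markers (10 genes) ran from -0.16 to 0.51 in AA and from -0.32 to 0.099 in SS, with SS replicate 2 lowest. In limma, 5 smooth muscle, 4 mesothelial, 3 macrophage and 2 colonocyte markers were higher in AA with an unadjusted p below 0.05. No marker of these lists was lower at that p, and 5.67% of all genes were higher. The array means of the groups overlapped in these lists and were apart in 2 others. Fibroblast markers were above 0 in 8 of 8 genes, where limma gave an unadjusted p under 0.05 for 7, and their mean ran from 0.15 to 0.45 in AA, highest in AA replicate 3, and from -0.54 to 0.091 in SS. B cell markers were below 0 in 6 of 6, all 6 at an unadjusted p under 0.05 in limma, where 2.29% of all genes were lower. The B cell mean ran from -0.69 to -0.10 in AA and from 0.20 to 0.52 in SS, highest in SS replicate 1. The part of the marker lists in the member values was not tested, except through covariates. With the adipocyte, colonocyte or smooth muscle mean as a covariate, 61, 57 or 60 of 71 members lay below 0, with medians of -0.092, -0.063 and -0.091. The medians of all genes in these fits were -0.0066, -0.0035 and -0.0059. The markers behind these covariates also leaned by group, with 13 of 13 adipocyte markers below 0, and 11 of 14 colonocyte and 10 of 10 smooth muscle markers above 0.

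Leaving out an array moved the counts as well. Without SS replicate 1, 52 of 71 members lay below 0 with a median of -0.054, and 6 were lower at an unadjusted p under 0.05 in limma, namely Cox6a2, Ndufa10, Ndufa8, Ndufa9, Ndufs7 and Sdha. In that fit the median of all genes was -0.00092, and 5.58% of all genes were lower at that p. Without AA replicate 3, 51 lay above 0 with a median of 0.047, against a median of 0.016 over all genes. In that fit 2 members (Ndufa1 and Ndufb8) were higher at an unadjusted p under 0.05 in limma, where 5.81% of all genes were. Without both arrays the median was -0.00047, against 0.0058 over all genes. At that p 1 member was higher (Ndufa1) and 3 were lower (Ndufa10, Ndufa9 and Sdha), against 5.79% and 4.07% of all genes. No member had an adjusted p under 0.05 in any of these fits.

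Promoters of the nuclear-encoded subunits often hold motifs of NRF-1 and of the ETS factor GABP, the factors through which the coactivator PGC-1alpha raises mitochondrial genes. RefSeq promoter sequences of build GRCm38.p6, 250 bases before to 50 after the start, were at hand for 58 of 71 members. On either strand the NRF-1 motif matched in 12 of 58 (20.7%), against 8.81% of the 13130 tested genes with a promoter. The ETS motif CCGGAAG matched in 12 (20.7%), against 15.2%. The YY1 motif AAGATGGCG matched in 5 (8.62%), against 2.63%, and the muscle E-box CAGCTG in 5 (8.62%), against 18.2%. The ERR motif TCAAGGTCA matched in 1 (1.72%), Sdhd, against 0.312%. Members with the NRF-1 motif had a median difference of -0.013 and those without it -0.00059. For the ETS motif the medians were 0.0041 and -0.0056, for the YY1 motif -0.029 and -0.0039, and for the E-box -0.091 and -0.0039, with 5 members holding each of the last pair of motifs.

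The promoters of Sdha, of the general subunit Cox6a1 and of the muscle forms Cox7a1 and Cox8b are printed as examples. They lie at chr13:74350191-74350490 (minus strand), chr5:115348909-115349208 (minus), chr7:30183921-30184220 (plus) and chr7:140900397-140900696 (minus), and each is read 5′ to 3′ on the strand of its gene, with motif matches in capitals.
Sdha: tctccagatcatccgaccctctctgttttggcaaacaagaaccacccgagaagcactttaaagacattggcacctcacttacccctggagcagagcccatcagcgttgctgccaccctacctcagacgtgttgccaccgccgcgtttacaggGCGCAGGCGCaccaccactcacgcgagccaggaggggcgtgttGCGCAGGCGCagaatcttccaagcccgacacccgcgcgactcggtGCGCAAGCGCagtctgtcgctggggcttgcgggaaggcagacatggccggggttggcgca
Cox6a1: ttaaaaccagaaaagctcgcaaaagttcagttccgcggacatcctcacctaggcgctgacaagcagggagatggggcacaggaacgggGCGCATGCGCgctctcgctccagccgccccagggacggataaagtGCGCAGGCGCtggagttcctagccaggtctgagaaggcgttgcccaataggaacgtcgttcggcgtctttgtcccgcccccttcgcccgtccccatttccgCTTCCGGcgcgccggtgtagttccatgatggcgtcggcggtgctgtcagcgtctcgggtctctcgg
Cox7a1: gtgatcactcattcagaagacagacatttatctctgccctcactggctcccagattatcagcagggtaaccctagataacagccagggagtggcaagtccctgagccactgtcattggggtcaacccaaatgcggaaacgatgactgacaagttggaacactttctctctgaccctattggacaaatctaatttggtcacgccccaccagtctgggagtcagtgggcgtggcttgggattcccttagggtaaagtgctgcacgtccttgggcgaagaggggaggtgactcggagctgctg
Cox8b: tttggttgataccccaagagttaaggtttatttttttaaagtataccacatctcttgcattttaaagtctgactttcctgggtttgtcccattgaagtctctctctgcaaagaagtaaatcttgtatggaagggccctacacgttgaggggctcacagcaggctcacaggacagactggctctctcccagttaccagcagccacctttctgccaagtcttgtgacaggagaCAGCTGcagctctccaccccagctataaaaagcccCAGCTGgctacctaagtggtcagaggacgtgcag
Sdha held 3 NRF-1 matches, Cox6a1 held 2 NRF-1 matches and 1 ETS match, Cox7a1 held none of the 5 motifs and Cox8b held 2 E-boxes. These examples do not stand for shared and restricted subunits as classes. Of the 58 members 46 held no NRF-1 match, and the E-box also lay in the complex I genes Ndufa8, Ndufb10, Ndufs5 and Ndufv2. A match describes letters and not binding, and binding was not measured here.

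The rest of the pathway was read from 11 lists with 127 entries, of which 110 genes were measured. Of these, 56 were above 0 and 54 below, with a median of 0.0023. In limma, an unadjusted p under 0.05 was reached by 2 higher genes and 1 lower gene of the 110, against 5.67% and 2.29% of all genes. After adjustment 0 passed. The 17 ATP synthase genes split 9 to 8, with a median of 0.0075. Their smallest p was that of Atp5md, at 0.19 ± 0.098 (SE). Of cytochrome c and cytochrome c1, the electron carrier Cycs differed by 0.25 ± 0.14 (SE), with a limma adjusted p of 0.700. Of 11 genes encoded in mitochondrial DNA 2 were measured, with a median of 0.011.

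Assembly factors of complex IV were below 0 in 10 of 17, with a median of -0.024. Cox19, a copper-handling factor of complex IV assembly, had the smallest p of its list. It read 8.03, 7.84, 7.76 and 8.11 in AA and 7.65, 7.58, 7.702 and 7.53 in SS. Every AA value exceeded every SS value, as for 4.33% of all genes. The difference was 0.32 ± 0.10 (SE), the same to 2 decimals in both batches, with an unadjusted p of 0.013 and an adjusted p of 0.480 in limma. Assembly factors of complexes II and III had a median of 0.029, and those of complex I not named Nduf 0.023.

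Regulators of mitochondrial biogenesis were above 0 in 7 of 14 and below in 7. Ppargc1a, which encodes PGC-1alpha, had the smallest p of the list. It read 9.28, 8.81, 9.03 and 9.25 in AA and 9.31, 10.02, 9.59 and 9.56 in SS. The groups did not overlap, by a narrow margin between AA replicate 1 and SS replicate 1. In 1.84% of all genes, too, every AA value was under every SS value. The means were 9.09 ± 0.22 (SD, n = 4) and 9.62 ± 0.30 (SD, n = 4), an AA level of 0.694 of the SS level. The difference was -0.53 ± 0.17 (SE), -0.62 in batch 1 and -0.44 in batch 2, with an unadjusted p of 0.011 and an adjusted p of 0.463 in limma. Over the alternatives tried it ran from -0.70 with the adipocyte covariate to -0.36 without SS replicate 2, and the unadjusted p was 0.066 in batch 1 alone and 0.087 with the smooth muscle covariate. Pprc1, a coactivator of the same family, named after its values were seen, was the 1 gene of the list higher at an unadjusted p under 0.05. It read 6.33 to 6.45 in AA and 6.13 to 6.29 in SS, without overlap, where 4.33% of all genes had every AA value higher. Its difference was 0.19 ± 0.081 (SE), with an unadjusted p of 0.041 and an adjusted p of 0.603 in limma. Nrf1, Gabpa and Tfam of the same list, named after their values were seen, differed by 0.11, -0.071 and -0.16, each with an unadjusted p above 0.05 in limma. Nrf1 read 7.11 to 7.19 in AA and 7.01 to 7.06 in SS, without overlap, again as for 4.33% of all genes. The groups overlapped for Gabpa and Tfam.

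The authors' deposited table of gene sets raised in AA listed 266 sets. In 0 of them did the name hold a word for the respiratory chain, oxidative phosphorylation or mitochondria. The table gives sets raised in AA and no lowered ones, so it has no entry for a lower level.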

How the data were processed

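The authors deposited log2 expression values, 1 for every probe set on every array, made with RMA (robust multi-array average) per the submitters' processing notes, which name Affymetrix Power Tools and Partek 6.4. The genome build, annotation release and batch step were not given in the sources used here. The authors' deposited table of raised gene sets holds, per the file headers, enrichment scores with nominal p-values and q-values, of which the text uses the set names alone. The value table held 23442 probe sets, of which the platform annotation paired 19713 with genes; 18154 had 1 gene symbol and were tested, and 1559 had several. Entrez identifiers of 18092 matched the RefSeq gene table of GRCm38.p6, which changed 0 symbols. Cox7c and Ndufb4 had only probe sets with several symbols and were not analysed here. Probe sets of near-identical gene copies cannot be told apart.

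The AA and SS arrays were compared with limma 3.58.1 under R 4.3.3 (lmFit and eBayes, terms for group and batch, 5 residual degrees of freedom, no filter on dim probe sets). The script was tested on simulated data. In 11 genes with further probe sets, 9 of the 12 further sets had the sign of the chosen one, and the largest gap was 0.112. Precision is limited by the number of arrays, which have no read depth. The members and lists were chosen with earlier results of these data known. Named genes were all Sdh genes, the tissue-restricted isoforms, Cox7a2l and Ndufa4, the smallest p of complex I core (2), accessory (4) and assembly (2) genes, of complex III (3) and of general complex IV forms (3), and the smallest p of each pathway list. The fit was repeated without the batch term, with a replicate block, on probe sets at or above the median level, after quantile normalization or median centring, with trended and robust variance, on the mean of a gene's probe sets, without each array, in each batch by itself, and with adipocyte, colonocyte or smooth muscle marker means as covariates. The fit without AA replicate 3 and SS replicate 1 and the interaction test were added after the data were seen.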

Additional observations from a re-analysis of the deposited data

Results flagged for a closer look

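Within-group values of the named genes and of the complex means were screened for an array whose distance to its nearest neighbour takes up most of the range of its group of 4. Of 62 groups 5 met this, where chance flags about 1 in 20, or 3.1 of 62.

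Ndufs8, an iron-sulphur subunit of complex I, read 9.049 in SS replicate 1, against 9.389 to 9.457 in the other SS arrays. Ndufa10 read 10.106 in the same array, against 10.49 to 10.508 in the others. Both low values lie in the SS array that was lowest of its batch for most members. Ndufs7 read 9.455 in AA replicate 3, against 9.63 to 9.664 in the other AA arrays. The complex I mean of AA replicate 3 was -0.124, against 0.033 to 0.063 in the other AA arrays. Cox7b2, a testis form of a complex IV subunit far below the median level, read 3.986 in SS replicate 3, against 4.057 to 4.071 in the others, a gap that its narrow range makes wide. No cause was tested for any of these values.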

How the results depend on the processing

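Over the 21 alternatives 0 members had an adjusted p under 0.05 in limma, and the smallest was 0.129, with the adipocyte covariate. Of all genes 117 passed with that covariate and 32 with the colonocyte covariate. At an unadjusted p under 0.05, the count of members higher in AA was 1 without a batch term, with an intensity trend and without AA replicate 3 and SS replicate 1, and 0 to 2 with single arrays left out. The count lower was 0 with a filter at the median level, 4 with quantile normalization, 2 with median centring, 4 in batch 2 alone, 6 with the adipocyte and 3 with the colonocyte covariate, 3 without AA replicate 3 and SS replicate 1 (a setting chosen after seeing the data), and 0 to 6 with single arrays left out, 0 of them without AA replicate 2. The share of all genes lower was 6.88% in batch 2 alone, 6.19% with the adipocyte and 4.30% with the colonocyte covariate. For all genes the counts higher and lower were 944 and 382, but 789 and 760 with quantile normalization and 672 and 674 with median centring. The complex III median was 0.17 in batch 1 alone and the complex II median -0.13 with the adipocyte covariate. With single arrays left out the medians ran from -0.060 to 0.044 for complex I, from -0.074 to 0.026 for complex II, from -0.055 to 0.082 for complex III and from -0.081 to 0.067 for complex IV, the lowest without AA replicate 4. The deviations of same-numbered arrays of the groups correlated at -0.44 to -0.093, and 0 of 4 AA arrays correlated best with the SS array of their number. Centring of the batches pushes such correlations below 0 within a batch, so this check cannot tell whether the numbers pair the samples. The fit with a replicate block gave 0 members higher and 1 lower at an unadjusted p under 0.05 in limma. Its differences and medians could not change, because each replicate number holds 1 array of each group. The same holds without the batch term, as the groups are balanced over the batches, so neither fit could change a sign.

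Signs held under every alternative for 9 of the 27 named genes, Cox6a2 among them, which ran from -0.34 to -0.15 with limma adjusted p-values of 0.255 to 0.965 and lost its unadjusted p under 0.05 in 6 settings. The other 18 changed sign. With quantile normalization Cox6b2 was -0.0037 and Cox7b2 0.026, and with median centring Cox6b2 was -0.033. In batch 1 alone Sdhc was 0.022 and Sdhd 0.069. In batch 2 alone Sdhb was -0.044, Cox6b2 -0.097, Cox7a1 -0.11, Cox7b2 0.016, Cox8b 0.20, Cox8c 0.15, Ndufs8 -0.11, Uqcrfs1 -0.0079, Uqcrb -0.046 and Cox7b -0.041. With the adipocyte covariate Sdhb was -0.12, Cox6b2 -0.11, Cox7a1 -0.22, Cox8b 0.16, Cox8c 0.097, Ndufs8 -0.10, Ndufaf6 -0.0022, Uqcr11 -0.081, Uqcrfs1 -0.022, Uqcrb -0.0096, Cox7b -0.011 and Cox6a1 -0.00093. With the colonocyte covariate Sdhb was -0.081, Cox6b2 -0.10, Cox7a1 -0.025, Cox8b 0.013, Cox8c 0.055, Ndufs8 -0.030, Ndufaf6 -0.017, Uqcr11 -0.019, Uqcrfs1 -0.056 and Uqcrb -0.029. With the smooth muscle covariate Sdhb was -0.12, Cox4i2 -0.022, Cox6b2 -0.22, Cox8c 0.041, Ndufs8 -0.049, Ndufb8 -0.020, Ndufaf6 -0.058, Uqcr11 -0.065, Uqcrfs1 -0.15, Uqcrb -0.042, Cox6c -0.031 and Cox7b -0.036. Without AA replicate 3 and SS replicate 1 Cox8b was 0.059, Cox8c 0.032 and Uqcrb -0.00047. With single arrays left out Sdhb ran from -0.044 to 0.18, Sdhc from -0.050 to 0.040, Sdhd from -0.10 to 0.033, Cox4i2 from -0.011 to 0.15, Cox6b2 from -0.086 to 0.13, Cox7a1 from -0.070 to 0.32, Cox7b2 from -0.071 to 0.055, Cox8b from -0.27 to 0.082, Cox8c from -0.10 to 0.056, Ndufs8 from -0.016 to 0.20, Uqcrfs1 from -0.0053 to 0.18 and Uqcrb from -0.017 to 0.11. The cause of these changes was not tested.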

Other observations

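Among the mitochondrial pathways that feed the chain, the citric acid cycle was below 0 in 9 of 13 measured genes, with a median difference of -0.087 (0.056 in batch 1 and -0.20 in batch 2). Idh3a, a subunit of the NAD-dependent isocitrate dehydrogenase, had the smallest p of the list at -0.20 ± 0.11 (SE), with a limma adjusted p of 0.688. Beta-oxidation genes were above 0 in 11 of 14, with a median of 0.052 (batch 1, 0.26, batch 2, -0.14, so the direction turned), and the smallest p among them was that of Echs1, an enoyl-CoA hydratase, at -0.16. Ubiquinone synthesis genes were below 0 in 6 of 9, with a median of -0.038 (batch 1, -0.015, batch 2, -0.17), and Coq7, a hydroxylase of that route, differed by -0.20. None of these lists held a gene at an unadjusted p under 0.05 in limma.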
